A study of Homo sapiens with 12 samples.

Results

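The window of hg19 chromosome 16 from 10.9 to 11.45 Mb holds the genes CIITA, DEXI, CLEC16A and SOCS1, among others, and a dense set of peaks of the B-cell transcription factor PAX5. Its members are the peaks of the 6 deposited lists that overlap the window. After merging of peaks that overlapped or touched, they formed 34 regions out of 14465 in all lists. The window was chosen by measured values: stretches of 200 kb starting at 11000000 and 11200000 were among the densest in regions with peaks of both L428-PAX5 libraries but of no Raji or Namalwa library. Those stretches had 5 and 6 such regions, and the highest number in any stretch of that length was 6. The density of L428-PAX5-only regions is thus what selected the window and is described without a test. Chromatin was precipitated with an antibody against PAX5 and sequenced.

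Raji and Namalwa come from Burkitt lymphoma, were grown without treatment and are referred to as the B-cell lines. L428-PAX5 was made from the Hodgkin lymphoma line L428 and treated with Mifepristone; PAX5 overexpression began 48 h ahead of fixation. Each of the 3 lines had 2 precipitated libraries, labelled replicates 1 and 2, and 2 input libraries. The labels do not say whether replicates were separate cultures. No L428 cells without induced PAX5 and none of the 6 input libraries were analysed here. Burkitt lymphoma thus rests on 2 lines and Hodgkin lymphoma on 1.

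PAX5 binds DNA through its paired domain and both activates genes of the B-cell programme and represses genes of other lineages. CIITA encodes the coactivator that switches on the MHC class II genes, through which B cells present antigen, and it does so without binding DNA itself. SOCS1 encodes an inhibitor of JAK-STAT signalling that is often mutated in classical Hodgkin lymphoma. CLEC16A encodes a protein of endosomes that takes part in autophagy, and DEXI, named for its induction by dexamethasone, encodes a small protein whose function is little known. In RefSeq's table for GRCh38.p14 the genes follow each other in the order CIITA, DEXI, CLEC16A, SOCS1, with TVP23A before CIITA and the sperm chromatin genes TNP2, PRM3, PRM2 and PRM1 after SOCS1. The peaks are on hg19, no annotation of that build was used here, and coordinates were not converted. Single regions are therefore named by position, numbered 1 to 34 from low to high coordinate, and not assigned to a gene, exon or intron.

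The bases just upstream of the start sites of DEXI, CLEC16A and SOCS1 are shown because they are the only sequence of the locus used here. They are RefSeq sequences of GRCh38.p14, 250 bases each, on the strand of the gene and ending at the start site, with DEXI and SOCS1 on the minus strand and CLEC16A on the plus strand. CIITA had no entry. Capitals mark the match to a searched motif.
DEXI: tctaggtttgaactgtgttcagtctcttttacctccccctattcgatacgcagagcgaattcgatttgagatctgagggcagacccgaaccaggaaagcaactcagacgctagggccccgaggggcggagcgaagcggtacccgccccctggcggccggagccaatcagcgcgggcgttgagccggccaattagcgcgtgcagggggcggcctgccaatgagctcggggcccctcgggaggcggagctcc
CLEC16A: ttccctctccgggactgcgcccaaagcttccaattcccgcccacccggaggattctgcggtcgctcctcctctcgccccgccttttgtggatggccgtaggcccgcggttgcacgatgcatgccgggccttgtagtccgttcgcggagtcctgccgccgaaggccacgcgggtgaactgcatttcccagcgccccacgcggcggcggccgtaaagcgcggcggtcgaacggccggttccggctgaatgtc
SOCS1: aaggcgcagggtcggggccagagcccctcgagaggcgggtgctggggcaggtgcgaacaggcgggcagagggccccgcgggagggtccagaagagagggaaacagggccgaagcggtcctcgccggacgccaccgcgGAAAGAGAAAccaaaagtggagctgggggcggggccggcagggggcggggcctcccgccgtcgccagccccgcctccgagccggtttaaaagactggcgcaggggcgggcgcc
SOCS1 held 1 match to the interferon regulatory factor motif, which 3.02% of 35116 promoter stretches of this length hold on either strand. GCGTGAC, the core letters used here for PAX5, was in none of these stretches and in 2.2% of all. TTCNNNGAA of STAT factors (6.57% of all) and CACGTG, the E-box (6.34% of all), were in none either. The stretches were rich in G and C, with 64% in DEXI, 68.4% in CLEC16A and 74% in SOCS1 against a median of 58% over all. Whether a peak covers any of them was not examined, because the builds differ.

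PAX5 regions of L428-PAX5 and of Raji or Namalwa lay side by side in the window, with 1 region in common. Of the 34 regions, 13 had peaks of B-cell lines only, 20 had peaks of L428-PAX5 only, and 1 had peaks of both kinds. Over the whole genome, 6885 of 14465 merged regions had an L428-PAX5 peak and 8723 had a B-cell-line peak. Peaks of both kinds were in 1143 of all regions (7.9%). In the window, 1 of 21 regions with an L428-PAX5 peak also had a B-cell-line peak (4.76%, exact 95% interval 0.12 to 23.8%), against 16.6% in all lists. Of 14 regions with a B-cell-line peak, 1 had an L428-PAX5 peak (7.14%, 0.181 to 33.9%), against 13.1% in all lists. Both intervals include the share over all lists. The choice of a window rich in L428-PAX5-only regions also lowers the overlap, so nothing is read from these shares.

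The 2 B-cell lines shared most of their reproducible regions here, a reproducible region being one with a peak in both libraries of a line. Raji had 6 (17.6% of the 34, against 15.1% of all regions) and Namalwa 8 (23.5%, against 13.0%), and 5 were reproducible in both (14.7%, against 6.68%). Of the 6 Raji regions, 5 had a Namalwa peak (83.3%, exact 95% interval 35.9 to 99.6%), beside 75.8% over the genome. Of the 8 Namalwa regions, 7 had a Raji peak (87.5%, 47.3 to 99.7%), beside 70.9%. With so few regions the intervals are wide, and neither share was separable from the genome's. L428-PAX5 had 11 reproducible regions (32.4%, against 17.2% of all regions), and all 11 lacked a peak in each of the 4 B-cell-line libraries. Without replicate 2, 20 regions counted for L428-PAX5, 19 of them without a B-cell-line peak; without Raji replicate 1, 10 counted for Raji. Regions reproducible in L428-PAX5 with no B-cell-line peak make up 14.1% of all, a background from which nothing is read, since the window was chosen for them. Of all regions reproducible in L428-PAX5, 17.9% had a B-cell-line peak, against 0 of 11 here (exact 95% interval up to 28.5%). The choice of window lowers this share as well, so nothing is read from it either.

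**Figure D1:**
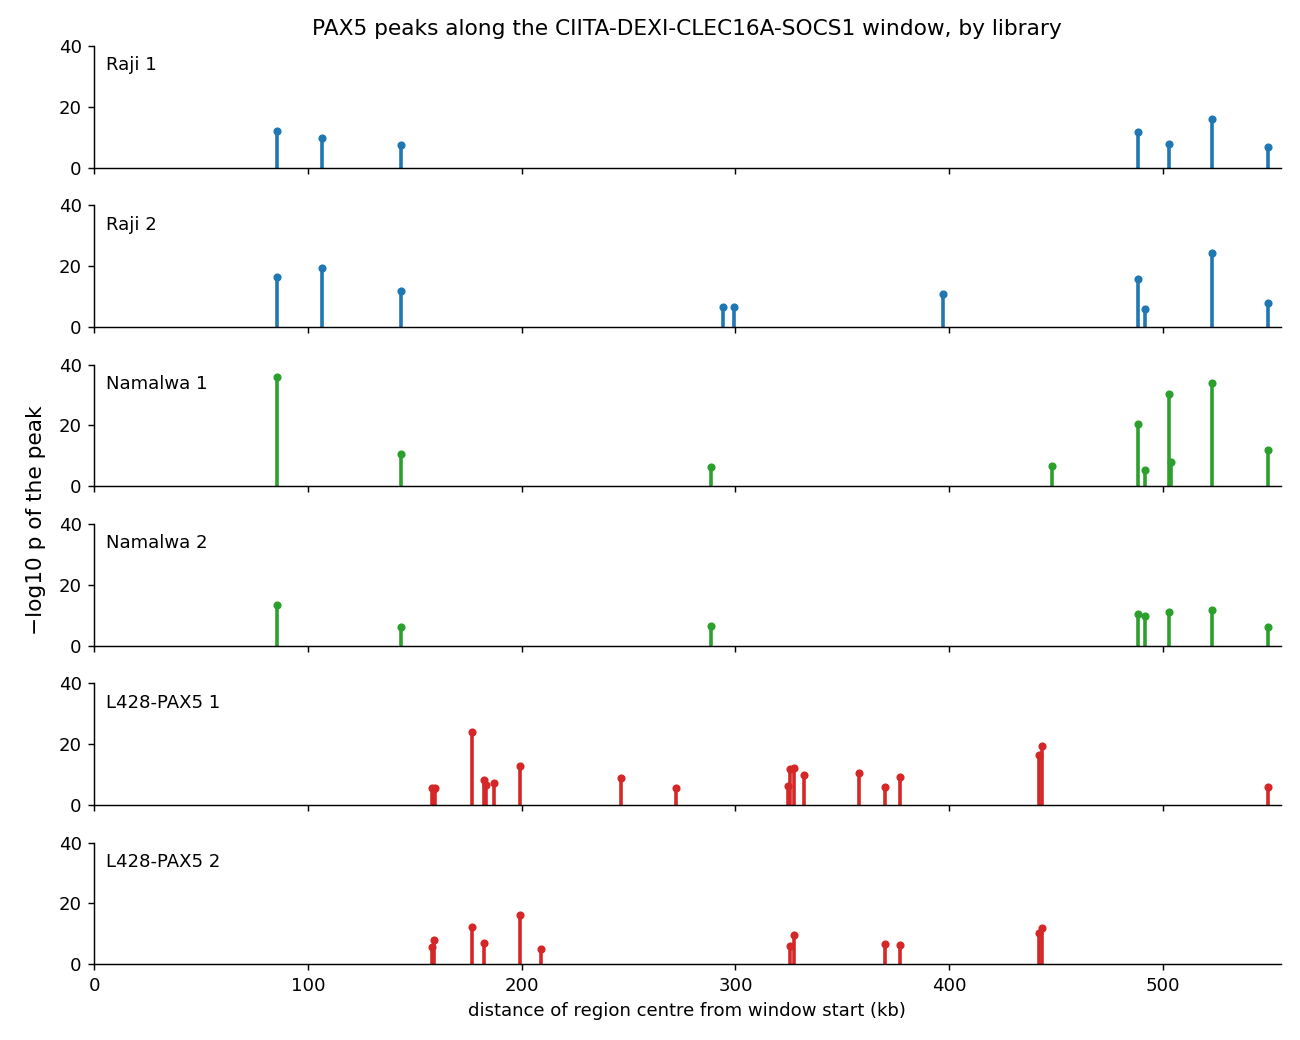
Peaks along the window by library: the x axis is the distance of each merged region's centre from the window start in kb, and the height of each stick is the −log10 p of the library's peak in it. Sticks of Raji (blue) and Namalwa (green) stand mainly at the sides, and those of L428-PAX5 (red) stand between them, apart from 1 stick of replicate 1 at the right edge.

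The order along the chromosome was a block of L428-PAX5 regions flanked by B-cell-line regions. All 20 L428-PAX5-only regions lay within 286 kb, chr16:11058032-11343558. To the left, chr16:10985439-11043916 held 3 regions, all with Raji peaks and 2 of them also with Namalwa peaks, and no L428-PAX5 peak. To the right, chr16:11347832-11449442 held 7 regions, all with Namalwa peaks and 5 with Raji peaks, of which 1 also had an L428-PAX5 peak. Inside the block there were 4 B-cell-line regions, none of them shared between Raji and Namalwa, and Raji replicate 1 had no peak there at all. In peaks, the block held 19 of the 20 of L428-PAX5 replicate 1 and all 12 of replicate 2, but 0 of 7 and 3 of 10 for Raji and 1 of 10 and 1 of 8 for Namalwa, in the order of replicates. The block's limits were read from the peaks themselves, so this arrangement is a description of these lists.

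Raji and Namalwa were both reproducible in 5 regions, numbers 1, 3, 29, 33 and 34. Values are the −log10 of the authors' p, which may be an adjusted one and moves with the depth of a library and orders peaks within a list only. The within-list percentile puts each on a scale on which 100 is the lowest p of the list. Region 1, chr16:10985439-10985964, is the leftmost of the window. Its −log10 p was 11.9 and 16.4 in Raji and 36.0 and 13.4 in Namalwa, with no peak in L428-PAX5. It was the strongest window peak of both Namalwa lists, at percentiles 96.6 and 85.3, and stood at 80.1 and 84.2 in Raji.

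Region 33, chr16:11422298-11423212, was the strongest window peak of both Raji lists. Its −log10 p was 15.9 and 24.4 in Raji and 34.0 and 11.7 in Namalwa, with percentiles of 89.9, 93.2, 96.3 and 78.6. All 4 B-cell-line libraries thus ranked it high in their lists, and neither L428-PAX5 list had it. Region 29, chr16:11388272-11388765, had a −log10 p of 11.5, 15.9, 20.5 and 10.4 in the same order of libraries. Its percentiles lay between 72.5 and 87.8, a narrower span than those of region 3, chr16:11043212-11043916. Region 3 had 7.39, 11.8, 10.5 and 6.09, with percentiles from 27.1 (Namalwa replicate 2) to 71.3 (Raji replicate 2). It was the last B-cell-line region before the L428-PAX5 block and ended 14.1 kb from it.

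Region 34, chr16:11448499-11449442, was the sole region with peaks of both kinds. Its −log10 p was 6.93 and 7.74 in Raji, 11.8 and 6.04 in Namalwa and 5.80 in L428-PAX5 replicate 1, and replicate 2 had no peak there. In L428-PAX5 it stood at percentile 22.3, near the weak end of the list, and in the B-cell lines between 26.7 and 68.6. It is also the last region inside the window: its end lies under 1 kb from the edge. Within the window the overlap between the kinds of line therefore rested on 1 weak peak of 1 library. Without L428-PAX5 replicate 1, or with the window narrowed by 50 kb at each end, 0 regions were shared. The next region past the edge, chr16:11463992-11465096, was reproducible in both Raji and L428-PAX5 and had no Namalwa peak. Its peaks lay 14.0 to 14.4 kb outside and stood at percentiles 51.1 and 80.0 in Raji and 93.5 and 23.3 in L428-PAX5. A window widened by 50 kb at each end, an alternative chosen after seeing the data, thus held 2 shared regions.

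In 4 further regions a single B-cell line was reproducible. Region 2, chr16:11006391-11006961, had peaks in Raji at 9.87 and 19.3 and none in Namalwa or L428-PAX5, and stood at percentiles 70.5 and 89.0 in Raji. Region 31, chr16:11402670-11403094, was high in Namalwa, at 30.5 and 11.0, and also had a peak of 7.66 in Raji replicate 1. Region 30, chr16:11391051-11391908, stood at 5.41 and 9.87 in Namalwa and at 5.92 in Raji replicate 2. Its rank differed most between replicates of a B-cell line, with percentiles of 9.62 and 68.9 in Namalwa. Region 15, chr16:11188061-11189191, was weak in Namalwa, at 6.27 and 6.40, and it is the only reproducible B-cell-line region inside the L428-PAX5 block. The absence of a line from a list means that no peak passed the caller's threshold, and a weaker signal there cannot be seen in these files.

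**Figure D2:**
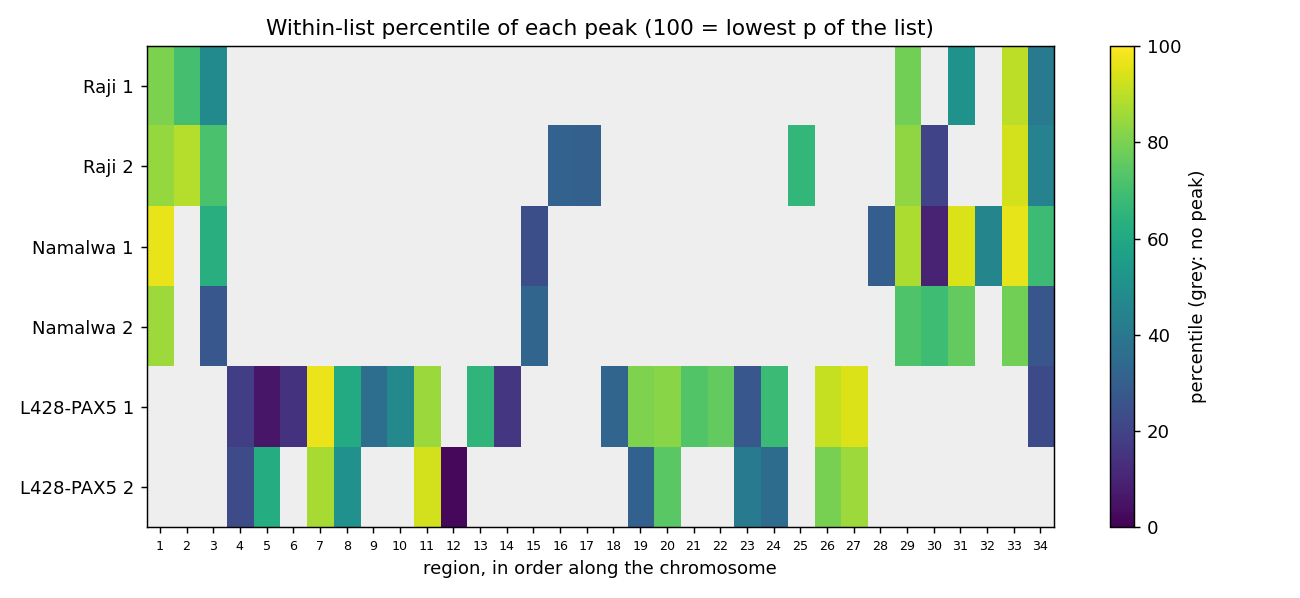
Within-list percentile of the peak (colour, 100 for the lowest p of a list) in each of the 34 regions, numbered along the chromosome on the x axis, for the 6 libraries on the y axis; grey means no peak. The columns of the B-cell lines and of L428-PAX5 share a coloured cell only in region 34.

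The 11 reproducible L428-PAX5 regions fell into 4 groups along the block, a group ending where more than 20 kb held no L428-PAX5 peak. Between the first and second groups, regions 13 and 14 stood apart, each a peak of replicate 1 alone. In replicate 1 their −log10 p ran from 5.15 to 24.1 with a median of 11.7, and in replicate 2 from 5.78 to 16.1 with a median of 8.00. The first group, between 11058032 and 11109371, held 9 L428-PAX5 regions, of which 5 were reproducible. Region 7, chr16:11075741-11077307, was the strongest window peak of replicate 1, at 24.1 and percentile 96.9, and stood at 12.3 and 86.9 in replicate 2. It was also the widest region of the window, with peaks of 1566 and 968 bp. Region 11, chr16:11098828-11099578, was the strongest of replicate 2, at 16.1 and percentile 93.3, with 12.9 and 84.9 in replicate 1. The 2 libraries thus placed different regions first, and each region ranked high in both.

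The other reproducible regions of this group were weaker. Region 4, chr16:11058032-11058466, had 5.63 and 5.78, at percentiles 18.5 and 23.3. Region 5, chr16:11058688-11059047, started 222 bp further on and had 5.15 and 8.00, so that its percentiles, 5.86 and 62.0, lay farther apart than in any other reproducible L428-PAX5 region. Region 8, chr16:11082234-11082570, had 8.34 and 7.08, near the middle of both lists.

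The reproducible regions of the second group, 19 and 20, were 1242 bp apart. Region 19, chr16:11225464-11225978, had 11.7 and 6.09, with percentiles of 80.7 and 30.9. Region 20, chr16:11227220-11227514, had 12.1 and 9.45 and stood at 82.4 and 74.5. The third group was of low or middle rank: region 23, chr16:11269711-11270226, had 6.01 and 6.52, and region 24, chr16:11276756-11277217, had 9.19 and 6.27. Their percentiles lay between 27.2 and 68.0.

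The fourth group, regions 26 and 27, closed the block and was strong in both libraries. Region 26, chr16:11341960-11342349, had 16.3 and 10.3, at percentiles 91.1 and 79.5. Region 27, chr16:11343018-11343558, began 669 bp after it and had 19.3 and 11.8, at 94.6 and 85.2. Only 4.27 kb beyond region 27 lay region 28, chr16:11347832-11348470, a weak peak of Namalwa replicate 1 alone (6.65). This was the shortest distance between separate L428-PAX5 and B-cell-line regions in the window. The median distance from an L428-PAX5 region to the nearest B-cell-line region was 26.3 kb here and 58.8 kb over all lists, and in the other direction 25.1 kb and 78.6 kb. Peaks of every list are denser in the window than over the genome, which shortens such distances, so nothing is read from them.

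**Figure D3:**
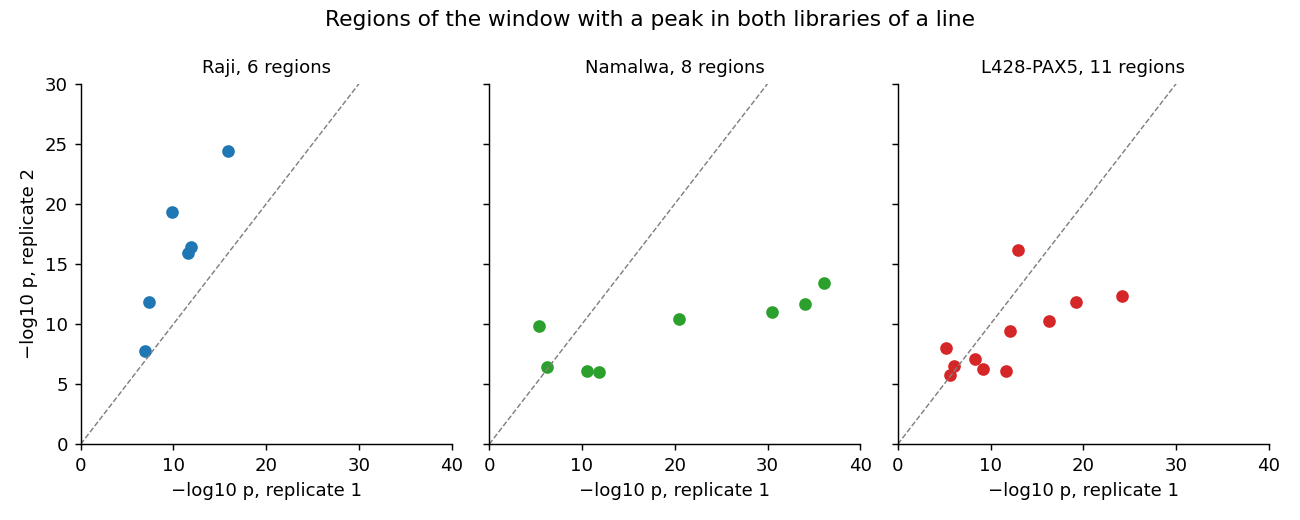
−log10 p of replicate 1 (x axis) and replicate 2 (y axis) for the window regions with a peak in both libraries of a line, 1 panel per line; the dashed line marks equal values. The 6 Raji points lie above the line, while 6 of 8 Namalwa points and 7 of 11 L428-PAX5 points lie below it.

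Each of the remaining 14 regions was found in 1 library (41.2% of the 34, against 55.1% of all regions). L428-PAX5 replicate 1 had 8 of them, Raji replicate 2 had 3, Namalwa replicate 1 had 2 and L428-PAX5 replicate 2 had 1. Raji replicate 1 and Namalwa replicate 2, the shorter lists of their lines, had none. The 8 of L428-PAX5 replicate 1 ran from 5.54 to 10.5, at percentiles 14.8 to 76.1, and the highest was region 22, chr16:11257854-11258188. The highest of Raji was region 25, chr16:11296570-11297401, at 10.7 and percentile 66.1, inside the L428-PAX5 block. In Namalwa it was region 32, chr16:11403731-11404059, at 8.11 and percentile 45.5. Of the regions with any L428-PAX5 peak, 11 of 21 were found in both libraries (52.4%, exact 95% interval 29.8 to 74.3%), beside 36.1% over all lists. For Raji it was 6 of 11 (54.5%, 23.4 to 83.3%), beside 41.0%, and for Namalwa 8 of 10 (80%, 44.4 to 97.5%), beside 29.6%. The intervals of Raji and L428-PAX5 include the share over all lists, and that of Namalwa lies above it. The window was chosen for regions found in both L428-PAX5 libraries, which raises the L428-PAX5 share. It was not drawn at random, so nothing is read from any of these shares. These intervals take in counting error alone, and regions are not independent.

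By the median, peaks of the 2 libraries of a line sat at nearly the same place, though some lay farther apart. The distance between their centres had a median of 33.8 bp over the 6 Raji regions, 35.5 bp over the 8 Namalwa regions and 58.5 bp over the 11 L428-PAX5 regions, against 39, 46 and 38.5 bp over all reproducible regions of these lines. The largest was 300 bp, in region 15 of Namalwa, and the smallest 3.5 bp, in region 2 of Raji. In L428-PAX5 the centres differed by 7 to 235.5 bp.

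The window was dense in every list, also in those of the B-cell lines. Their peaks entered its choice too, since L428-PAX5-only regions lack them and earlier results of these data were known. The density of no list is therefore independent of that choice. Peaks in it numbered 7 and 10 for Raji, 10 and 8 for Namalwa and 20 and 12 for L428-PAX5. The lists differ in length, from 2107 to 6241 peaks, so the counts were set against it. Per 1000 peaks of a list these were 2.67 and 2.02 in Raji (mean 2.34 ± 0.46, SD, n = 2), 1.60 and 3.80 in Namalwa (2.70 ± 1.55, SD, n = 2), while L428-PAX5 had 3.23 and 3.69 (3.46 ± 0.33, SD, n = 2). The ranges of Namalwa and L428-PAX5 overlapped, and Namalwa replicate 2 had the highest share of all 6. Compared with the mean density over the genome, the window held 15.0 and 11.3 times as many peaks in Raji, 9.0 and 21.3 times in Namalwa, and for L428-PAX5 the ratios were 18.1 and 20.7.

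Among 5635 consecutive stretches of the same width, 550 kb, those with more peaks than the window numbered 3 and 4 for Raji, 17 and 0 for Namalwa and 0 and 1 for L428-PAX5. In L428-PAX5 replicate 1 the highest count elsewhere was 18, and in Namalwa replicate 2, 2 other stretches also reached 8. The stretches stand on a fixed grid while the window was placed on its peaks, which favours the window. Beyond its edges the peaks thinned out. The 550 kb before it held 5 regions and the 550 kb after it 7, with no reproducible L428-PAX5-only region in either. The nearest peaks before the window lay 18.3 to 18.4 kb away in both Raji libraries and Namalwa replicate 1, at percentiles of 27.4 to 67.9. They lay 1673 kb away in Namalwa replicate 2 and 1935 and 539 kb away in L428-PAX5 replicates 1 and 2. After the window, the nearest peaks of both Raji and both L428-PAX5 libraries form the shared region given above, while those of Namalwa lay 263 and 265 kb away.

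**Figure D4:**
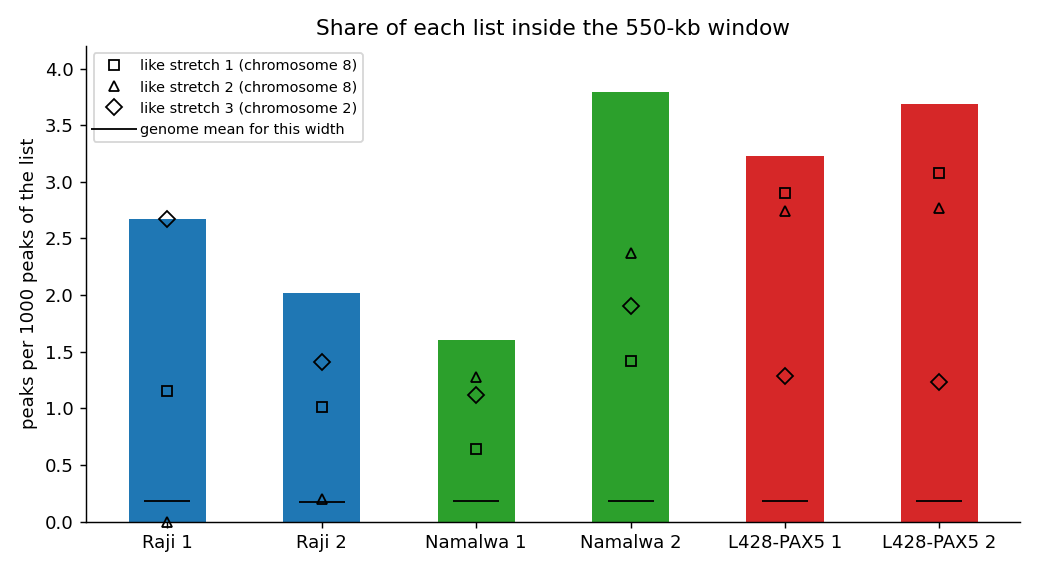
Peaks in the window per 1000 peaks of each list (bars), with the 3 stretches of equal width whose values were most like it (open symbols) and the mean expected of this width over the genome (dashes). All 6 bars exceed the dashes, and the symbols lie at or below the bars.

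The stretches most like the window over the 6 libraries were found by the distance between their shares of each list, among 908 stretches with 10 or more peaks. The closest was chromosome 8 from 128700000 to 129250000, followed by chromosome 8 from 144100000 to 144650000 and chromosome 2 from 8250000 to 8800000, at distances of 3.22, 3.69 and 3.74, where the median was 5.97. The first of these had 23 regions, 19 with L428-PAX5 peaks, 6 with B-cell-line peaks and 2 with both. The second also had 23 regions, 17 with L428-PAX5 peaks, 8 with B-cell-line peaks and 2 with both. The chromosome 2 stretch had 8 and 9 such regions out of 11, and 6 with both. Its L428-PAX5 peaks per 1000 were 1.29 and 1.23, below those of the window, whereas the chromosome 8 stretches had 2.90 and 3.08 and 2.74 and 2.77.

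The L428-PAX5 peaks of the window were narrow and close together. Their median width was 387 and 323 bp in replicates 1 and 2, against 542 and 505 bp over the whole lists. In Raji the window peaks were 493 and 570 bp wide, against 461 and 465 bp, and in Namalwa 597.5 and 469.5 bp, against 545 and 477 bp. Weak peaks may be narrow in any list, so each peak's width was ranked among peaks of its list within 5 percentile points of its p. On that scale, where 50 is the middle, the window peaks had a median of 15.7 and 10.6 in L428-PAX5, 46.4 and 68.1 in Raji and 60.9 and 55.1 in Namalwa. In L428-PAX5, 15 of 20 and 10 of 12 peaks fell below 50. In the chromosome 8 stretches named above, the L428-PAX5 medians on this scale were 20.9 and 38.0 in the first and 40.9 and 25.8 in the second, in the order of replicates.

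Of the 20 peaks of L428-PAX5 replicate 1, 10 (50%) lay within 2 kb of another peak of the same list, against 11.0% of its whole list. In replicate 2 it was 6 of 12 (50%), against 9.16%. The 2 chromosome 8 stretches had like shares in replicate 1, with 9 of 18 and 8 of 17 peaks close to another, and 2 of 10 and 2 of 9 in replicate 2. Close spacing in replicate 1 was thus not particular to the window. Among B-cell-line peaks, Namalwa replicate 1 had 2 of 10 (20%), against 11.5%, while the other lists had 0, against 7.52% and 10.7% in Raji and 6.22% in Namalwa replicate 2. The close peaks were also the narrow ones in replicate 1, with a median width of 338 bp, or 3.86 on the width scale, against 586 bp and 48.1 for the peaks without a close neighbour. In replicate 2 the values were 320 bp and 4.15, against 337 bp and 21.5. The 2 close peaks of Namalwa replicate 1 were narrow too, at 2.0 on this scale. Close peaks elsewhere in the L428-PAX5 lists had 484 and 444 bp, at 37.4 and 33.0. Close, narrow peaks add to the count of L428-PAX5 regions, for which the window was selected, so neither spacing nor width is independent of that choice. Peaks of a library are not independent replicates, and no test was made.

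**Figure D5:**
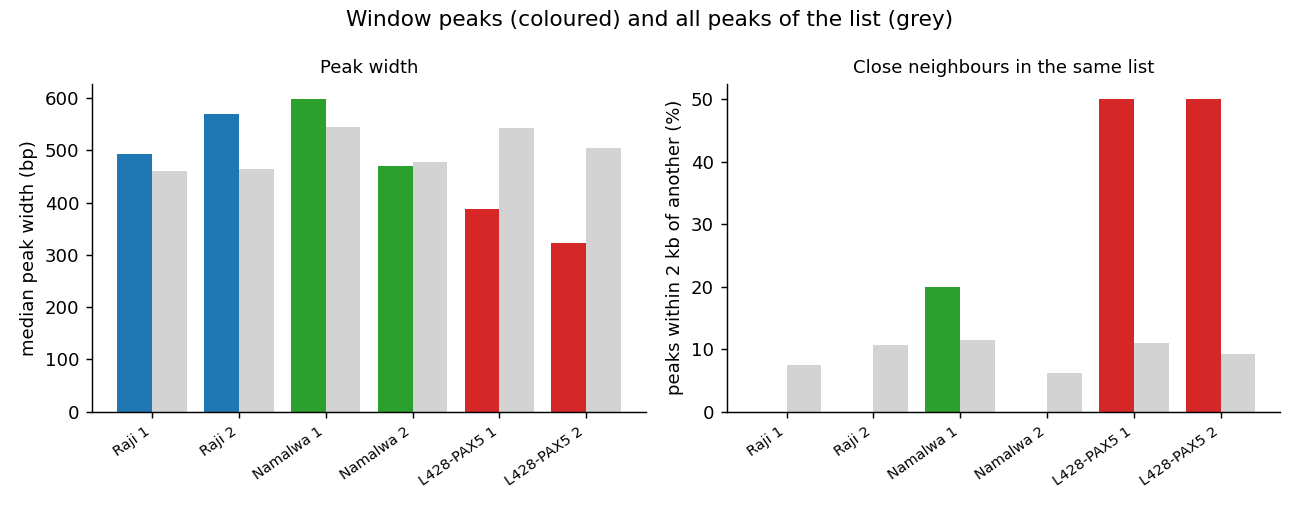
Median peak width in bp (left) and percent of peaks within 2 kb of another peak of the same list (right), for the window (coloured) and for the whole list (grey), by library. In both L428-PAX5 libraries the window peaks are narrower than the list and 50% of them have a close neighbour.

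Shorter lists keep the stronger sites by construction. With every list limited to 2107 peaks, as many as the shortest had, and those of lowest p kept, 5 of the 6 reproducible Raji regions, 5 of the 8 of Namalwa and 6 of the 11 of L428-PAX5 still had a peak in both libraries. In the better 50% of each list these numbers were 4, 4 and 6. Under both limits 0 regions were shared between L428-PAX5 and a B-cell line.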

How the data were processed

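Peaks of PAX5 chromatin immunoprecipitation were analysed in 6 libraries, 2 for each of Raji, Namalwa and L428-PAX5, grouped by sample title. Per the labels, cells were fixed with 1% formaldehyde for 20 min and 10 µg of antibody was used. The authors deposited 1 list per library with a p-value for each peak, a unit read from the values, all below 1e-05. Whether it was adjusted for multiple testing is not given in the sources used here. BWA 0.5.9-r16, CASAVA 1.3 and 1.8 and the build hg19 are listed in the submitters' processing notes. Peak names carry PeakRanger. Not given in the sources used here are its settings, the use of input, read depths and whether starts count from 0 or 1.

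Peaks overlapping by at least 1 bp or touching were merged. Percentiles are 100 for the lowest p of a list, with mean ranks for ties. Shares carry exact (Clopper-Pearson) 95% intervals. No result was tested. The merging and ranking were tested on simulated data. Regions reproducible in a line were named by rule, together with the strongest of the rest per line. Region 28, the block and its groups, the density, width and spacing measures, and the window widened by 50 kb at each end were chosen after values were seen. The window, its members and the lists were chosen with earlier results of these data known. Planned gene lists and gene assignment were not run, for want of an hg19 annotation. Scripts ran in Python 3.11.15 with pandas 2.3.3, numpy 2.4.6, matplotlib 3.10.9 and scipy 1.17.1.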

Additional observations from a re-analysis of the deposited data

How the results depend on the processing

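No paired analysis was possible because no result comes from a test. Of 144 values recomputed for 24 results, 52 moved beyond the SD of the 2 libraries of a line or beyond 1.5 times the count. Reciprocal overlap of 50% and centres within 200 bp moved none by this rule, but counts changed. Each gave 37 merged regions instead of 34, with 9 instead of 11 reproducible in L428-PAX5. Namalwa had 7 instead of 8 and Raji stayed at 6. Shorter lists hold fewer peaks by construction. In the better 50% of each list, the window held 6 peaks of Raji 2, 6 of Namalwa 1, 5 of Namalwa 2, 11 of L428-PAX5 1 and 7 of L428-PAX5 2. There were 21 merged regions, 4 reproducible in Namalwa, 6 in L428-PAX5, all 6 without a B-cell-line peak, and 0 with peaks of both kinds of line. The peaks per 1000 moved to 3.82 in Raji 1 and 4.31 in L428-PAX5 2. In the full lists, the mean percentile of the window peaks was 65.7 and 61.4 in Raji, 61.6 and 58.5 in Namalwa. For L428-PAX5 it was 54.7 and 55.4. Within the shortened lists it was 48.2 in Raji 1, 69.1 in Namalwa 1, 52.5 in Namalwa 2, 59.0 in L428-PAX5 1 and 52.0 in L428-PAX5 2.

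In lists of equal length the window held 6 peaks of Raji 2, 5 of Namalwa 1 and 9 of L428-PAX5 1. The regions numbered 22, with 5 reproducible in Namalwa, 6 in L428-PAX5, 6 without a B-cell-line peak, and 0 with peaks of both kinds. The peaks per 1000 were 3.32 and 2.85 in Raji and 4.27 in each L428-PAX5 library, and the mean percentile was 57.3 and 55.7 in Raji, 66.9 in Namalwa 1, while L428-PAX5 had 50.1 and 49.9.

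A window narrowed by 50 kb at each end left 4 peaks of Raji 1, 6 of Namalwa 1 and 5 of Namalwa 2, with 5 regions reproducible in Namalwa and 0 with peaks of both kinds. The peaks per 1000 of Raji 1 were then 1.53, and the mean percentile 69.3 in Raji 1, 51.8 in Namalwa 1, while L428-PAX5 1 had 56.4. Widened by 50 kb at each end, a setting chosen after seeing the data, the window held 2 regions with peaks of both kinds, 3.44 peaks per 1000 of Raji 1, and mean percentiles of 59.8 in Raji 1, 56.8 in L428-PAX5 1 and 52.9 in L428-PAX5 2. Omitting single libraries gave 26 to 34 merged regions, 6 to 10 reproducible in Raji (highest without Raji replicate 1), 8 to 10 in Namalwa, for L428-PAX5 11 to 20, and 11 to 19 in L428-PAX5 without a B-cell-line peak (both highest without L428-PAX5 replicate 2), and 0 to 1 with peaks of both kinds. With 1 library of a line left, reproducible means a peak in that library, so these counts rise by construction. Read depth is unknown, and a site missing from a list may lie below its threshold.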
